A study of Homo sapiens with 32 samples.

Results

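The aminoacyl-tRNA synthetase genes were followed in HEK293 cells over a short incubation with 4-thiouracil. They were chosen by symbol: 20 genes whose enzymes charge tRNA in the cytosol and 16 genes whose enzymes charge tRNA in mitochondria, which makes 36 of the 32738 entries of the count table. Of these 36 genes, 35 had a count and 34 had enough counts to be tested, namely all 20 cytosolic genes and 14 of the 16 mitochondrial genes. The symbols are the older ones that the table uses.

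Aminoacyl-tRNA synthetases join each amino acid to the tRNAs that carry its codons, and so set the pairing on which the genetic code rests. In human cells the cytosolic and the mitochondrial enzymes come mostly from separate nuclear genes, and the mitochondrial ones are imported after translation. Part of the cytosolic enzymes sit in a multi-synthetase complex held together by the scaffold proteins AIMP1, AIMP2 and EEF1E1, and many cytosolic synthetase genes are textbook targets of the transcription factor ATF4 when amino acids run short.

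HEK293 is a long-used human cell line first made from embryonic kidney, and 4-thiouracil is a sulphur-bearing uracil with which RNA made in its presence can be tagged. The cells were incubated for 0, 5, 15 or 30 min, with 2 biological replicates (cultures 1 and 2) at each time and 4 libraries per culture, and polyadenylated RNA was counted. The treatment of the 0 min cells and any step that separated tagged from untagged RNA were not given in the sources used here, so each value is a share of the RNA that was counted. The labels do not say whether the 2 cultures were grown separately, and the p-values measure only the spread between them. In these bulk samples, a lower level in every cell and a lower share of cells with the RNA cannot be told apart.

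The 8 cultures held 776871 to 1396056 counts, of which 3974 to 7362 fell on the 36 genes. Of the HEK293 markers looked for, NEFM had 55 counts, EYA1 44, LHX1 41 and PAX2 5, while 6 genes of blood, liver, endothelial and connective tissue cells (PTPRC, CD3E, ALB, COL1A2, CD34 and HBB) had 0. Levels are given as CPM, counts scaled to a library of 1e6, with TMM factors. The TMM scaling factors, which correct for differences in RNA makeup, were 0.637 and 0.6837 at 0 min and between 1.097 and 1.225 at the later times. The median log2 change of all genes tested was 0.10, 0.19 and 0.35 at 5, 15 and 30 min against 0 min with TMM, and 0.83, 0.96 and 1.22 when counts were scaled by their total alone. Levels and changes of synthetase genes are given with TMM, beside those medians. With totals alone, the sign of the log2 change turned round in 5, 4 and 8 of the 34 genes at 5, 15 and 30 min against 0 min, and in 5 of 34 at 30 min against 5 min.

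The promoters were searched for motifs, which the choice of genes did not use. Sequences of the motif that differed most between the compartments are shown first. The letters TGATGNAA are the core of the C/EBP-ATF response element (CARE), the site through which ATF4 acts on amino acid response genes. Windows ran from 250 bases before to 50 bases after each annotated start, were taken from RefSeq on GRCh38.p14 and were searched on both strands. A gene with more than 1 window was counted if any of them held the letters. The core stood in 7 of 16 cytosolic and 1 of 14 mitochondrial genes with a window, and in 4.46% of 27305 genes. The 7 cytosolic stretches follow, 5′ to 3′ on the strand of the gene, with the core or its reverse complement in capitals.
AARS (chr16:70289675-70289704, minus strand): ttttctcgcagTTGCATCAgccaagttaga
CARS (chr11:3057407-3057436, minus strand): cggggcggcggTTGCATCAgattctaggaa
GARS (chr7:30594834-30594863, plus strand): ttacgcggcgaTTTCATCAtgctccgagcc
IARS (chr9:92293692-92293721, minus strand): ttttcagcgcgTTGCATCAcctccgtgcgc
MARS (chr12:57488053-57488082, plus strand): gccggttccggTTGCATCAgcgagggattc
NARS (chr18:57621804-57621833, minus strand): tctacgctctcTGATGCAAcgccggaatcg
TARS (chr5:33440956-33440985, plus strand): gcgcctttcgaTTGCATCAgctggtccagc

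In NARS the core reads along the gene, and in the other 6 it reads against it. Counted from the annotated start of the window that held it as 0, its first letter stood at −187 in AARS, −33 in GARS, −13 in IARS, −4 in MARS, −2 in CARS, 2 in TARS and 14 in NARS. The 1 mitochondrial gene was YARS2, at −197. The other motifs searched were closer between the compartments. The ETS letters CCGGAAG stood in 9 of 16 cytosolic and 7 of 14 mitochondrial genes with a window, against 12.2% of all genes with a window. The NRF1 letters (GCGCA, any base, GCGC) stood in 3 of 16 and 3 of 14 (6.98% of all), the E-box CACGTG in 1 of 16 and 3 of 14 (8.77% of all), and CCAAT in 7 of 16 and 9 of 14 (39.7% of all). No window was at hand for DARS, LARS, VARS, YARS, AARS2 and VARS2. These matches describe letters, not binding.

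Cytosolic synthetase genes were mostly lower after incubation with 4-thiouracil, and mitochondrial ones were split. At 5 min against 0 min, 3 of the 20 cytosolic genes rose, 14 fell and 3 passed in neither direction, with 4 higher and 10 lower when counts were scaled by totals alone. Of the 14 mitochondrial genes tested, 4 rose, 1 fell and 9 passed in neither direction, with 8 higher and 0 lower under totals alone. Over all 10439 genes tested, 54.7% were called at an adjusted p under 0.05 in edgeR's quasi-likelihood test, 28.7% higher and 26% lower, which is 2998 and 2712 genes, against 4461 and 1448 with totals alone. The median log2 change was −1.17 for the cytosolic genes, 0.42 for the mitochondrial genes and 0.10 for all genes. The share of cytosolic genes called lower, 70.0%, stood above the background of 26%, and the share of mitochondrial genes called higher, 28.6%, was close to its background of 28.7%.

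The later times gave similar counts, measured against the same 0 min cultures. At 15 min, 14 cytosolic genes were lower and 3 higher (median −1.05), with 8 lower and 4 higher under totals alone, and 2 mitochondrial genes were lower and 4 higher (median 0.23), with 0 and 9 under totals alone. The background at 15 min was 54.4%, with 29.8% higher and 24.6% lower. Under totals alone 4901 of the 10439 genes tested were higher and 1307 lower. At 30 min, 15 cytosolic genes were lower and 1 higher (median −1.33), with 10 and 4 under totals alone. At the same time 3 mitochondrial genes were lower and 3 higher (median 0.08), with 1 and 10 under totals alone. The background at 30 min was 55.9%, with 32.1% higher and 23.8% lower. Under totals alone 5622 of the 10439 genes were higher and 1331 lower. Over all 4 times together, 19 of 20 cytosolic and 6 of 14 mitochondrial genes differed, against 59% of all genes, and the 1 cytosolic gene that did not was VARS.

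**Figure D1:**
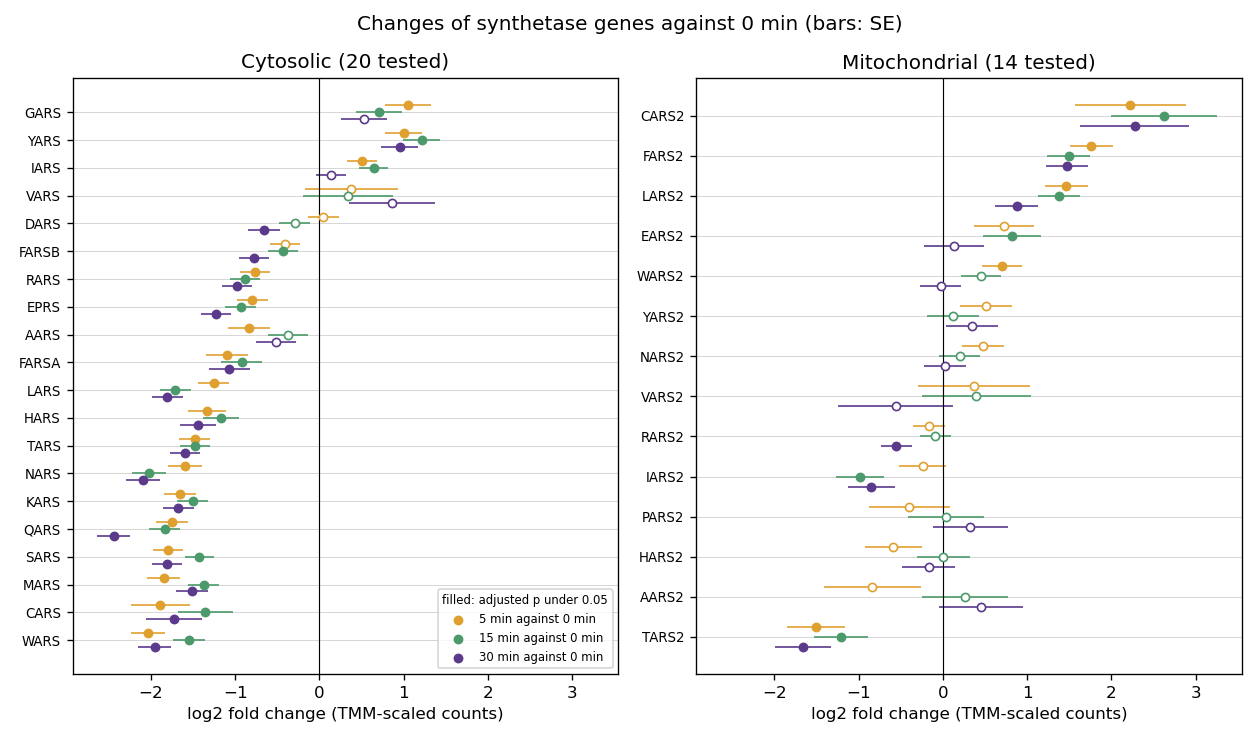
Log2 fold change with its SE (bars) of the 20 cytosolic and 14 mitochondrial synthetase genes tested, at 5, 15 and 30 min against the shared 0 min cultures, with filled points for adjusted p under 0.05. Most cytosolic points lie left of 0, while CARS2, FARS2 and LARS2 lead the mitochondrial genes to the right. With totals alone 5, 4 and 8 of the 34 points change sign at 5, 15 and 30 min, among them the filled ones of FARSB at 15 min and of DARS, FARSB, IARS2 and RARS2 at 30 min.

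Since scaling moves every gene alike, the makeup of the synthetase counts themselves was also read. Mitochondrial genes held 12.7% and 11.9% of the synthetase counts in the 2 cultures at 0 min, 23.7% and 24.7% at 5 min, 23.0% in both at 15 min, and 22.4% and 23.7% at 30 min. Both 0 min cultures were thus below all 6 later ones, both 5 min cultures were above both 15 min ones, and the 30 min cultures overlapped those of both times. The means at 0, 5, 15 and 30 min were 12.3 ± 0.568%, 24.2 ± 0.743%, 23.0 ± 0.0146% and 23.0 ± 0.910% (SD, n = 2 each). An exact permutation test of 2 cultures against 2 cannot give a p below 0.333, so none was run on these shares. Counts are not divided by transcript length, so the share says nothing of how many molecules each compartment has, and its difference between times is what can be read.

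On the scale of CPM of all counts, the summed cytosolic level at 0, 5, 15 and 30 min was 4447 ± 52.1, 3965 ± 84.9, 4152 ± 109 and 3661 ± 142. The summed mitochondrial level was 622 ± 40.1, 1265 ± 78.3, 1242 ± 33.6 and 1096 ± 98.8 at the same times (SD, n = 2 each). The cytosolic sum was thus lower and the mitochondrial sum higher at each later time than at 0 min, and no later culture reached the 0 min range of either sum. With TMM the cytosolic sums were 6780, 3637, 3709 and 3046 and the mitochondrial sums 947, 1161, 1109.6 and 912. The mitochondrial sum at 30 min against 0 min therefore takes its direction from the scaling, while the cytosolic sum is lower either way.

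**Figure D2:**
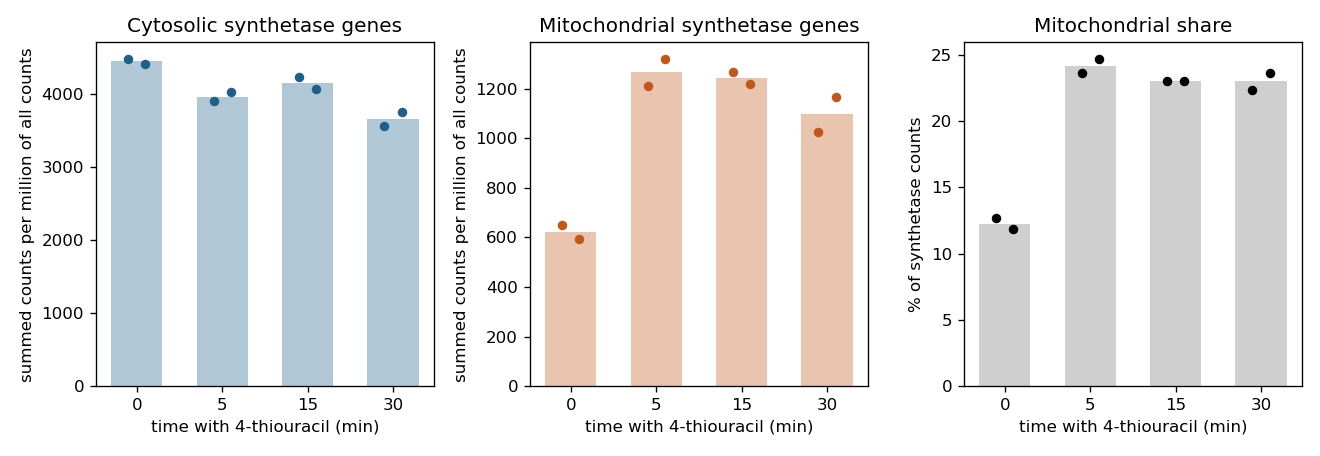
Summed CPM of all counts for the cytosolic (left) and mitochondrial (middle) synthetase genes, and the mitochondrial share of all synthetase counts in % (right), at 0, 5, 15 and 30 min; bars are means of 2 cultures and points are the cultures. The share lies at 11.9% and 12.7% at 0 min and between 22.4% and 24.7% later, and with TMM scaling in place of totals the mitochondrial sum at 30 min is 912 against 947 at 0 min.

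Among the 8 cytosolic enzymes of the multi-synthetase complex (DARS, EPRS, IARS, KARS, LARS, MARS, QARS and RARS), 6 fell at 5 and at 15 min and 7 at 30 min, with medians of −1.03, −1.15 and −1.37, against 4 lower at each time with totals alone. IARS rose at 5 and 15 min. Among the 12 cytosolic genes outside the complex, 8 fell at each of the 3 times, with medians of −1.21, −1.04 and −1.25, and 2, 2 and 1 rose. Of all genes, 26%, 24.6% and 23.8% were called lower and 28.7%, 29.8% and 32.1% higher at these times. Whether complex members differ from the others was not tested.

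QARS, the glutaminyl-tRNA synthetase of the complex, had 384 and 351 TMM-scaled CPM at 0 min, 119 and 102 at 5 min, 104 and 102 at 15 min, and 66.1 and 69.5 at 30 min. Its 0 min cultures stood apart from all others and its 30 min cultures were the lowest. The log2 change was −1.75 ± 0.19 (SE, adjusted p = 1.85e-09) at 5 min, −1.84 ± 0.19 (adjusted p = 5.62e-10) at 15 min and −2.44 ± 0.19 (adjusted p = 1.58e-12) at 30 min, the lowest of the 34 genes at 30 min. MARS, the methionyl-tRNA synthetase, had 306 and 299.6 CPM at 0 min, 81.4 and 86.2 at 5 min, 122 and 111 at 15 min, and 109 and 103 at 30 min. It was high at 0 min alone, and fell, with log2 changes of −1.85, −1.37 and −1.51 at 5, 15 and 30 min (SE 0.20, 0.19 and 0.19; adjusted p = 1.13e-09, 1.43e-07 and 1.84e-08). Exons of MARS and DDIT3 overlap on opposite strands by up to 287 bases, and no source used here says whether counting was by strand. The same holds for exons of KARS and TERF2IP, WARS and WDR25, YARS and S100PBP, and EARS2 and UBFD1, by up to 176, 211, 158 and 370 bases.

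KARS, the lysyl-tRNA synthetase, is one of the few synthetase genes that serve both compartments from 1 locus. It had 858 and 1225 CPM at 0 min, 328 and 332 at 5 min, 352 and 382 at 15 min, and 355 and 298 at 30 min. Its 0 min cultures differed from each other more than any later cultures did, and both were far above them. KARS fell, with log2 changes of −1.65, −1.50 and −1.67 at 5, 15 and 30 min (SE 0.19 each; adjusted p = 3.96e-09, 2.26e-08 and 2.04e-09). LARS, for leucine, had 493 and 406 CPM at 0 min, 195 and 184 at 5 min, 136 and 139.5 at 15 min, and 125 and 133 at 30 min. Each time had lower cultures than the time before it. LARS fell, with log2 changes of −1.25, −1.71 and −1.80 (SE 0.18 each; adjusted p = 3.05e-07, 1.05e-09 and 1.96e-10).

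DARS and IARS left this course. DARS, for aspartate, had 315 and 255 CPM at 0 min, 284 and 307 at 5 min, 249.5 and 217 at 15 min, and 154 and 208 at 30 min. The 0 and 5 min cultures overlapped, and the 30 min cultures were below all others. The log2 change was 0.05 ± 0.19 at 5 min (adjusted p = 0.843), −0.29 ± 0.19 at 15 min (adjusted p = 0.189) and −0.66 ± 0.19 at 30 min (adjusted p = 0.00353). With totals alone DARS was called higher at 5 min (0.78, adjusted p = 0.000566) and at 15 min (0.48, adjusted p = 0.0277), and the 30 min change was 0.22. Its 30 min call did not hold without culture 1 at 0 min (−0.46, adjusted p = 0.0955) or culture 1 at 30 min (−0.43, adjusted p = 0.150).

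IARS, for isoleucine, had the most counts of all 36 genes, 6312. It stood at 460.5 and 508 CPM at 0 min, 664 and 712 at 5 min, 784 and 727 at 15 min, and 513 and 553 at 30 min. The 5 and 15 min cultures were above those of both other times. IARS rose by 0.51 ± 0.18 at 5 min (adjusted p = 0.0143) and 0.64 ± 0.18 at 15 min (adjusted p = 0.00223), with 0.14 ± 0.18 at 30 min (adjusted p = 0.512), called higher with totals alone (1.02, adjusted p = 8.06e-07). The 5 min call did not hold without culture 1 at 0 min (0.47, adjusted p = 0.0907) or culture 2 at 5 min (0.48, adjusted p = 0.0829). The remaining members of the complex, EPRS and RARS, fell at all 3 times, with changes of −0.80, −0.93 and −1.23 for EPRS and −0.76, −0.89 and −0.98 for RARS, and like FARSA they were not called at any time with totals alone. EPRS joins the glutamyl and prolyl enzymes in 1 protein.

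Of the cytosolic genes outside the complex, WARS and CARS had the largest decreases at 5 min. WARS, the tryptophanyl-tRNA synthetase, which interferon is known to induce, had 296 and 338 CPM at 0 min, 72.0 and 81.2 at 5 min, 106 and 110.1 at 15 min, and 87.1 and 76.2 at 30 min. The 0 min cultures were the highest, and the 15 min cultures were above both neighbours in time. WARS fell, with log2 changes of −2.04 ± 0.20, −1.55 ± 0.19 and −1.95 ± 0.20 at 5, 15 and 30 min (adjusted p = 2.81e-10, 2.35e-08 and 1.96e-10). CARS, for cysteine, had 85.8 and 68.0 CPM at 0 min, 16.5 and 24.02 at 5 min, 35.6 and 24.6 at 15 min, and 24.02 and 22.7 at 30 min. The 15 min cultures lay above those of 5 and 30 min, and none reached 0 min. CARS fell, with log2 changes of −1.89 ± 0.35, −1.35 ± 0.33 and −1.72 ± 0.33 (adjusted p = 2.46e-05, 0.000652 and 4.06e-05), the 15 min call being lost with totals alone (−0.58, adjusted p = 0.143).

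NARS, for asparagine, had 311 and 301 CPM at 0 min, 112 and 91.8 at 5 min, 69.8 and 80.7 at 15 min, and 66.1 and 77.5 at 30 min. It was highest at 0 min and next highest at 5 min, and the 15 and 30 min cultures overlapped. NARS fell, with log2 changes of −1.60, −2.02 and −2.09 (SE 0.20 each; adjusted p = 2.99e-08, 3.62e-10 and 8.69e-11). SARS and TARS, for serine and threonine, fell at all 3 times, with changes of −1.80, −1.43 and −1.81 for SARS and −1.48, −1.47 and −1.59 for TARS. AARS, for alanine, fell at 5 min (−0.83, adjusted p = 0.00465, and −0.76, adjusted p = 0.0505, without culture 2 at 5 min), and had −0.37 at 15 min and −0.51 at 30 min (adjusted p = 0.179 and 0.0604). With totals alone the AARS changes were −0.099 at 5 min (adjusted p = 0.772), 0.40 at 15 min and 0.36 at 30 min, none of them called.

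GARS and YARS went the other way. GARS, for glycine, is the other gene here that serves both compartments. It had 44.7 and 46.3 CPM at 0 min, 86.2 and 102 at 5 min, 71.1 and 77.3 at 15 min, and 71.5 and 59.6 at 30 min. All 6 later cultures were above both 0 min cultures. GARS rose by 1.06 ± 0.27 at 5 min (adjusted p = 0.00127) and by 0.70 ± 0.27 at 15 min (adjusted p = 0.0277), and had 0.53 ± 0.27 at 30 min (adjusted p = 0.0986), called higher with totals alone (1.40, adjusted p = 2.98e-05). The 15 min call was lost without culture 1 or 2 at 0 min and without culture 1 or 2 at 15 min (adjusted p 0.0522 to 0.0924). With DESeq2 the 15 min change of GARS was 0.61 (adjusted p = 0.121).

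YARS, for tyrosine, had 91.9 and 63.3 CPM at 0 min, 166 and 149.8 at 5 min, 178 and 186 at 15 min, and 149 and 156 at 30 min. Both 0 min cultures were the lowest, and the 15 min cultures the highest. YARS rose by 1.00, 1.21 and 0.95 at 5, 15 and 30 min (SE 0.22 each; adjusted p = 0.000233, 1.27e-05 and 0.000332). VARS, for valine, had 181 counts in all and log2 changes of 0.38, 0.34 and 0.86, none of which passed the test (adjusted p 0.153 to 0.605), although the last did with totals alone (1.73, adjusted p = 0.00299).

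The phenylalanyl enzyme of the cytosol is built from the catalytic subunit FARSA and its partner FARSB. FARSA had 141 and 119 CPM at 0 min, 55.5 and 65.7 at 5 min, 62.1 and 75.9 at 15 min, and 69.7 and 54.7 at 30 min, high at 0 min and overlapping at the later times. FARSA fell, with log2 changes of −1.09, −0.92 and −1.07 (SE 0.25, 0.24 and 0.24; adjusted p = 0.000354, 0.0015 and 0.000301). FARSB had 423 and 471 CPM at 0 min, 362 and 312 at 5 min, 303 and 360.4 at 15 min, and 239 and 283 at 30 min. The 0 min cultures were above all others and the 30 min ones below all others. The log2 change of FARSB was −0.41 ± 0.18 at 5 min (adjusted p = 0.0527), −0.43 ± 0.18 at 15 min (adjusted p = 0.0402) and −0.77 ± 0.18 at 30 min (adjusted p = 0.000399), with 0.33, 0.35 and 0.11 and no call under totals alone.

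FARSB was called lower at 5 min with RLE factors or DESeq2 (adjusted p = 0.0251 and 0.0323), and its 15 min call was lost when any culture but culture 2 at 15 min was left out (adjusted p 0.0633 to 0.293). At 0, 5, 15 and 30 min FARSB held 77.4 ± 3.46%, 84.7 ± 2.90%, 82.8 ± 0.288% and 80.6 ± 4.52% of the counts of both subunits (SD, n = 2 each). The cultures at 0 min held 74.9% and 79.8%, and those at 5 min 86.7% and 82.6%, so those times did not overlap, while 0 and 30 min did.

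**Figure D3:**
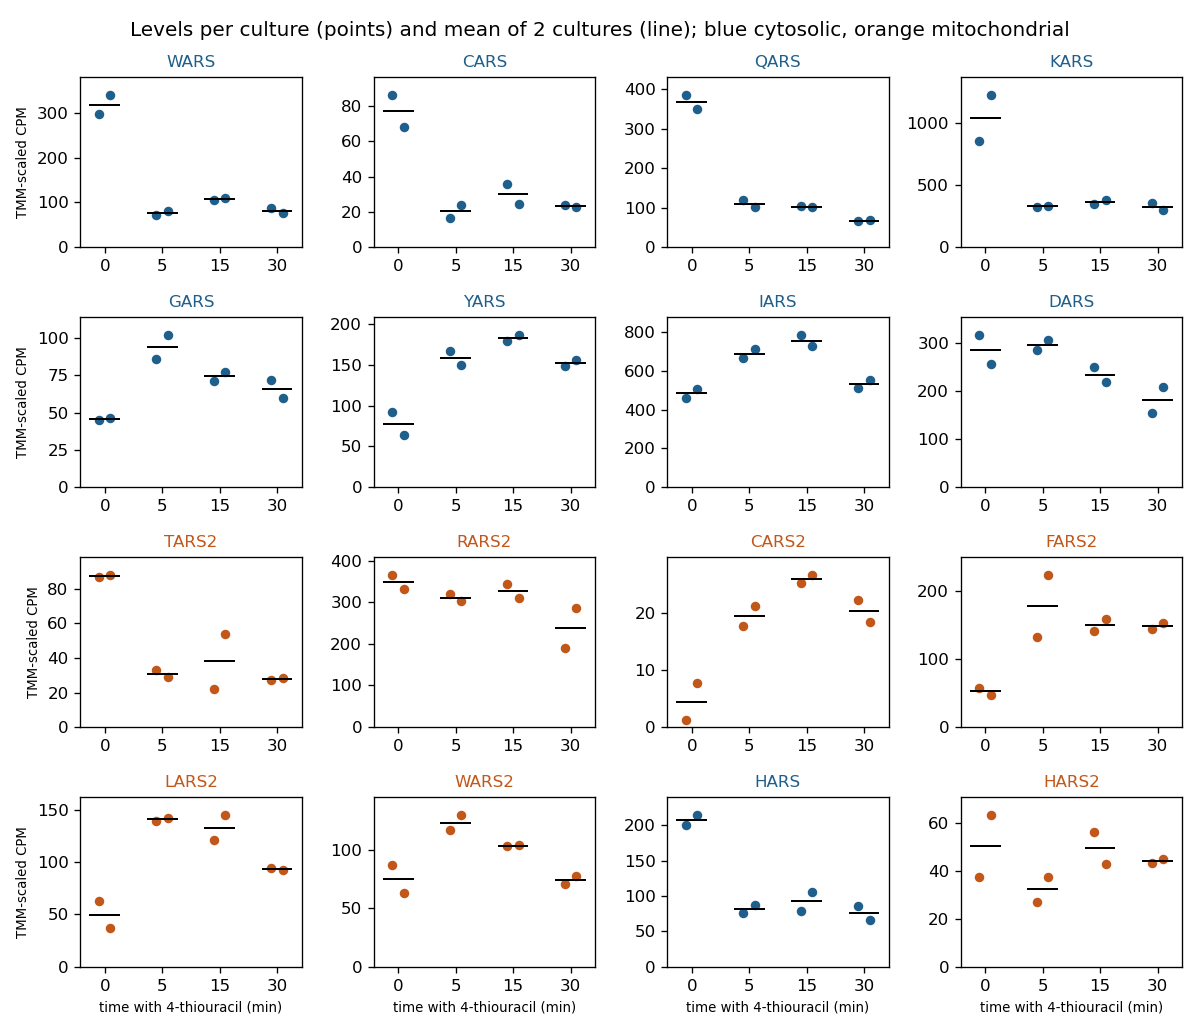
TMM-scaled CPM of 16 synthetase genes at 0, 5, 15 and 30 min with 4-thiouracil, with cultures as points and their mean as a line, cytosolic genes in blue and mitochondrial genes in orange. WARS, CARS, QARS, KARS, HARS and TARS2 are high at 0 min alone, GARS, YARS, CARS2, FARS2 and LARS2 are lowest at 0 min, and HARS2 overlaps between 0 min and the 2 later times; with totals alone DARS (15 and 30 min), RARS2 (all 3 times), WARS2 (30 min) and HARS2 (5 and 30 min) change sign against 0 min.

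Of the mitochondrial genes, CARS2, FARS2 and LARS2 rose at all 3 times. CARS2, for cysteine, had 1.21 and 7.72 CPM at 0 min, 17.7 and 21.2 at 5 min, 25.2 and 26.7 at 15 min, and 22.2 and 18.4 at 30 min. All later cultures were above both 0 min cultures, which held 1 and 5 counts. CARS2 rose by 2.22 ± 0.66, 2.62 ± 0.63 and 2.27 ± 0.64 on the log2 scale (adjusted p = 0.00475, 0.000644 and 0.00309). Without culture 1 at 0 min the change was 1.37 at 5 min (adjusted p = 0.101) and 1.41 at 30 min (adjusted p = 0.0818). Up to 326 bases of a CARS2 exon overlap one of ING1 on the other strand, which had 70 counts against 196 for CARS2.

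FARS2, for phenylalanine, had 58.0 and 47.9 CPM at 0 min, 132 and 224 at 5 min, 142 and 159 at 15 min, and 144 and 153 at 30 min. Its 0 min cultures were the lowest, and the 5 min cultures lay apart from each other. FARS2 rose by 1.76, 1.49 and 1.48 (SE 0.25 each; adjusted p = 3.02e-07, 5.66e-06 and 5.92e-06). LARS2, for leucine, had 62.8 and 37.1 CPM at 0 min, 139 and 142 at 5 min, 121 and 145 at 15 min, and 94.3 and 92.8 at 30 min. It was lowest at 0 min, and its 30 min cultures lay between those of 0 min and those of 5 and 15 min. LARS2 rose by 1.46, 1.38 and 0.88 (SE 0.25 each; adjusted p = 7.1e-06, 1.54e-05 and 0.00374), and without culture 2 at 0 min the 30 min change was 0.60 (adjusted p = 0.0760).

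WARS2, for tryptophan, had 87.0 and 63.3 CPM at 0 min, 117 and 130.0 at 5 min, 103 and 104 at 15 min, and 70.9 and 78.1 at 30 min. Its 5 min cultures were the highest, and the 0 and 30 min cultures overlapped. WARS2 rose by 0.71 ± 0.24 at 5 min (adjusted p = 0.0118), a call that did not hold without culture 2 at 0 min (adjusted p = 0.101), without culture 2 at 5 min (adjusted p = 0.0788) or with DESeq2 (adjusted p = 0.0543). Its 15 min change of 0.45 was called without culture 1 at 0 min (0.74, adjusted p = 0.0399). With totals alone WARS2 was called higher at 15 min (1.22, adjusted p = 4.24e-05) and at 30 min (0.85, adjusted p = 0.00312), where TMM gave −0.03 (adjusted p = 0.932). EARS2, for glutamate, rose at 15 min alone (0.82, adjusted p = 0.0422), and this call was lost without culture 1 at 0 min or culture 2 at 15 min (adjusted p = 0.169 and 0.256) and with DESeq2 (0.72, adjusted p = 0.155), while totals alone called EARS2 higher at 5 and 30 min as well (1.46 and 1.01).

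TARS2, for threonine, fell at all 3 times. It had 87.0 and 88.0 CPM at 0 min, 33.0 and 28.97 at 5 min, 21.98 and 54.0 at 15 min, and 27.0 and 28.3 at 30 min. The 0 min cultures were the highest, and the 15 min cultures spread on both sides of the other later ones. TARS2 fell, with log2 changes of −1.51 ± 0.34, −1.21 ± 0.32 and −1.66 ± 0.33 (adjusted p = 0.00034, 0.00196 and 6.63e-05). With totals alone the calls at 5 min (−0.77, adjusted p = 0.0542) and 15 min (−0.44, adjusted p = 0.244) were lost, and without culture 1 at 15 min the change at that time was −0.66 (adjusted p = 0.139).

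IARS2, for isoleucine, had 88.2 and 64.9 CPM at 0 min, 74.3 and 57.9 at 5 min, 38.8 and 39.0 at 15 min, and 46.2 and 39.3 at 30 min. The 0 and 5 min cultures overlapped above those of 15 and 30 min. The log2 change was −0.24 ± 0.28 at 5 min (adjusted p = 0.49), −0.99 ± 0.28 at 15 min (adjusted p = 0.00373) and −0.85 ± 0.28 at 30 min (adjusted p = 0.0103). With totals alone neither call was made, and the changes were 0.49, −0.22 and 0.025. Without culture 1 at 0 min the 15 and 30 min calls were lost (adjusted p = 0.0933 and 0.171), and without culture 2 at 30 min the 30 min call (adjusted p = 0.106).

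RARS2, for arginine, had the most counts of the mitochondrial genes, 2979. It had 365 and 331 CPM at 0 min, 319 and 302 at 5 min, 344 and 309.8 at 15 min, and 190.4 and 285 at 30 min. Only culture 1 at 30 min lay far from the rest, and both 30 min cultures were below all others. The log2 change was −0.17 at 5 min and −0.09 at 15 min (adjusted p = 0.47 and 0.699) and −0.55 ± 0.19 at 30 min (adjusted p = 0.013). With totals alone all 3 turned round, and RARS2 was called higher at 5 min (0.56, adjusted p = 0.00997) and at 15 min (0.69, adjusted p = 0.00157), with 0.33 at 30 min. It was −0.26 without culture 1 at 30 min (adjusted p = 0.389) and −0.45 without culture 1 at 0 min (adjusted p = 0.110).

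The other mitochondrial genes passed no test with TMM. NARS2, PARS2, YARS2, AARS2 and VARS2 had log2 changes between −0.84 and 0.51 over the 3 times, with 109 to 963 counts each. With totals alone NARS2 and YARS2 were called higher at all 3 times and AARS2 and PARS2 at 30 min, and the sign of PARS2 at 5 min and of VARS2 at 30 min turned round. NARS2 was called higher at 5 min without culture 2 at 0 min (0.92, adjusted p = 0.00772). SARS2 had 14 counts in all and was not tested. MARS2, for methionine, had 0 of 9742052 counts, which allows a level of up to 0.308 CPM at a limit of 3 counts.

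HARS and HARS2, the cytosolic and mitochondrial histidyl enzymes, lie head to head on chromosome 5, and the stretch between their annotated starts is shown because both genes share it. In the direction of HARS2, with the ETS letters CCGGAAG or their reverse complement in capitals and RefSeq on GRCh38.p14 as the source, it reads as follows.
HARS to HARS2 (chr5:140691371-140691454, plus strand): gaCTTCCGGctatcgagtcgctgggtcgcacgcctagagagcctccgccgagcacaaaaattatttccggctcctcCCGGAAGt

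The 84 bases hold 1 ETS match near each start, and the windows of both genes count both matches. HARS had 201 and 215 CPM at 0 min, 76.7 and 86.9 at 5 min, 79.5 and 105 at 15 min, and 86.5 and 66.4 at 30 min. It was high at 0 min alone. HARS fell, with log2 changes of −1.33, −1.17 and −1.44 (SE 0.22, 0.21 and 0.22; adjusted p = 4.25e-06, 1.97e-05 and 7.2e-07), the 15 min call being lost with totals alone (−0.39, adjusted p = 0.125).

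HARS2 had 37.5 and 63.3 CPM at 0 min, 27.1 and 37.4 at 5 min, 56.2 and 43.1 at 15 min, and 43.2 and 44.9 at 30 min. Its 5 min cultures were the lowest, and the 0 min cultures spread over all of the 15 and 30 min ones. The log2 change of HARS2 was −0.59 ± 0.34, 0.00 ± 0.31 and −0.17 ± 0.32 (adjusted p = 0.144, 0.993 and 0.666), and at 5 min it was −0.91 without culture 1 at 0 min (adjusted p = 0.0422). With totals alone HARS2 had 0.15 at 5 min and was called higher at 15 min (0.79, adjusted p = 0.0332) and 30 min (0.71, adjusted p = 0.0496). HARS2 held 15.7% and 22.8% of the counts of both genes at 0 min, 26.1% and 30.1% at 5 min, 41.4% and 29.03% at 15 min, and 33.3% and 40.3% at 30 min. The 0 min cultures were below all later ones, with 95% Wilson intervals of 11.3 to 21.5% and 17.3 to 29.4%, which cover counting error only. Exons of HARS and HARS2 overlap on opposite strands by up to 331 bases, so counts of the 2 genes may be mixed if strand was not used. Exons of HARS also overlap those of WDR55, which had 273 counts, on the opposite strand by up to 221 bases. Exons of HARS2 and ZMAT2 overlap on the same strand by up to 152 bases, which strand would not separate. ZMAT2 had 581 counts against 443 for HARS2.

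HARS and HARS2 are 1 of 16 pairs in which a mitochondrial gene has a cytosolic partner for the same amino acid, and both genes were tested in 14. EARS2 and PARS2 share the partner EPRS, and FARS2 was set against FARSA. The mitochondrial gene had the higher log2 change in 9 of 14 pairs at 5 min, 12 of 14 at 15 min and 10 of 14 at 30 min, all against the same 0 min cultures. At 30 min against 5 min the mitochondrial gene had the higher change in 4 of 14 pairs and the cytosolic gene in 10. At 5 min the log2 change of the cytosolic minus that of the mitochondrial gene was −4.11 for CARS and CARS2, −2.86 for FARSA and FARS2, −2.74 for WARS and WARS2 and −2.72 for LARS and LARS2. It was 0.75 for IARS and IARS2, 0.49 for YARS and YARS2, and 0.03 for TARS and TARS2, which both fell. The differences within pairs were not tested.

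The share of a pair's counts needs no scaling between samples. It was taken for HARS2 above and for LARS2, WARS2, CARS2 and TARS2 here, and not for the other pairs. Those left out include IARS with IARS2 and YARS with YARS2. These were the only 2 of 14 pairs with the higher log2 change in the cytosolic gene at 15 min (differences of 1.63 and 1.09). LARS2 held 11.3% and 8.36% of the counts of LARS2 and LARS at 0 min, 41.7% and 43.6% at 5 min, 47.0% and 51.0% at 15 min, and 43.0% and 41.0% at 30 min. WARS2 held 22.7% and 15.8% of the counts of WARS2 and WARS at 0 min, 61.9% and 61.5% at 5 min, 49.4% and 48.6% at 15 min, and 44.9% and 50.6% at 30 min. In both pairs each later culture was above both 0 min cultures. CARS2 held 1.39% and 10.2% at 0 min and between 41.5% and 52.0% later. TARS2 held 12.3 ± 0.998%, 12.4 ± 2.71%, 14.1 ± 7.23% and 11.8 ± 0.698% at the 4 times (SD, n = 2 each), which overlapped throughout.

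FARS2 and LARS2, which rose at all 3 times, are also the longest of the synthetase genes. Annotated spans (GENCODE v29, GRCh38) were 568 kb for FARS2, 161 kb for LARS2, 139 kb for NARS2 and 109 kb for WARS2, and no cytosolic synthetase gene was longer than 100 kb. CARS2, with the largest increase, spans 72.2 kb, and GARS and YARS, which also rose, 39.4 and 42.9 kb. Over the 14 mitochondrial genes tested, the Spearman correlation of span with the log2 change at 5 min was 0.714, over the 20 cytosolic genes 0.278, and over all 9343 protein-coding genes tested 0.557. These correlations are across genes, which are not independent replicates and share the 0 min libraries, and are given as descriptions. At 30 min they were 0.297, 0.271 and 0.417. Span and compartment go together here, and how much of the difference between the compartments goes with span was not tested.

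By span, the median log2 change at 5 min was −1.21 for the 12 synthetase genes of up to 25 kb, −0.324 for the 18 of 25 to 100 kb and 1.09 for the 4 over 100 kb. The same medians over all protein-coding genes were −0.936 (3453 genes), 0.25 (3790 genes) and 1.55 (2100 genes). The median of all synthetase genes thus lay below that of all genes in each class of length. Of the 7 cytosolic genes up to 25 kb the median was −1.60, and of the 5 mitochondrial ones −0.588. In the class of 25 to 100 kb the medians were −0.796 for 13 cytosolic and 0.513 for 5 mitochondrial genes. At 5 min the cytosolic median thus lay below that of all genes in both classes that hold both compartments, and the mitochondrial median above it. At 15 and 30 min the mitochondrial median of 25 to 100 kb, 0.121 and 0.135, lay below that of all genes, 0.22 and 0.307. Up to 25 kb it stayed above, at 0.0356 and −0.171 against −0.775 and −0.5.

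At 0, 5, 15 and 30 min the 4 mitochondrial genes over 100 kb held 3.41 ± 0.239%, 11.6 ± 1.49%, 10.03 ± 0.350% and 10.2 ± 0.00929% of all synthetase counts. The other 12 held 8.85 ± 0.329%, 12.6 ± 0.747%, 13.0 ± 0.364% and 12.9 ± 0.901% (SD, n = 2 each). In both sets the 0 min cultures were below all later ones.

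**Figure D4:**
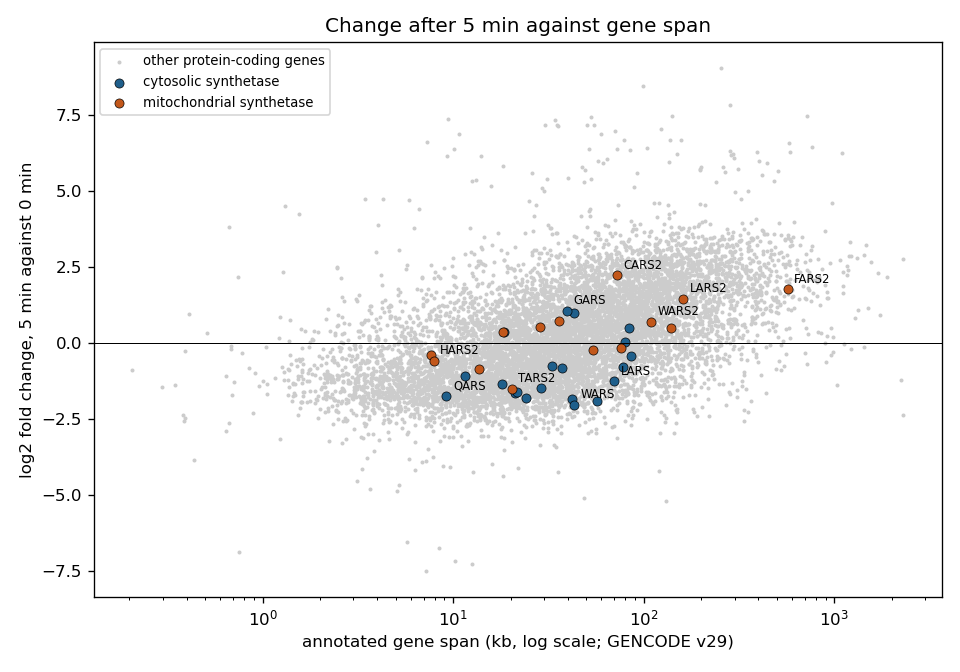
Log2 fold change at 5 min against 0 min over the annotated gene span (kb, log axis) for the cytosolic and mitochondrial synthetase genes and all other protein-coding genes tested. Changes are higher for longer genes (Spearman correlation 0.557 over all 9343 genes), and FARS2, LARS2, NARS2 and WARS2 are the synthetase genes over 100 kb.

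Between the times with 4-thiouracil, few synthetase genes differed. At 30 min against 5 min, DARS, LARS and QARS fell among the cytosolic genes and WARS2 among the mitochondrial ones, and 0 of 34 rose, where 12.4% of all genes were called, 5.88% higher and 6.52% lower. At an unadjusted p under 0.05 in edgeR, 0 cytosolic and 1 mitochondrial gene were higher and 8 and 4 lower, and DESeq2 called 0 higher and 4 and 1 lower. The medians were −0.11 for the cytosolic and −0.33 for the mitochondrial genes, against −0.03 for all genes. All 3 cytosolic genes belong to the multi-synthetase complex, and with totals alone 1 cytosolic and 0 mitochondrial genes were called.

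DARS had 154 and 208 CPM at 30 min, against 284 and 307 at 5 min, a log2 change of −0.71 ± 0.18 (adjusted p = 0.00933). QARS had a change of −0.69 ± 0.20 (adjusted p = 0.0211), LARS of −0.55 ± 0.18 (adjusted p = 0.0441) and WARS2 of −0.73 ± 0.22 (adjusted p = 0.0228). LARS2, at −0.59 (adjusted p = 0.0662), was called lower without culture 1 or 2 at 0 min (adjusted p = 0.0358 and 0.0354). In each of the 4 called genes both 30 min cultures lay below both 5 min cultures. Without culture 2 at 5 min or without culture 1 at 30 min, 0 of the 4 calls remained in edgeR, and without culture 2 at 30 min DARS remained alone. Leaving out culture 1 at 5 min lost LARS and QARS, and leaving out culture 2 at 15 min lost LARS and WARS2. At 15 min against 5 min and at 30 min against 15 min, edgeR called 0 of 34 synthetase genes, where 1.55% of all genes (1.03% higher, 0.517% lower) and 5.04% (2.26% higher, 2.78% lower) were called. At an unadjusted p under 0.05, 4 were higher and 2 lower at 15 min against 5 min, and 0 higher and 8 lower at 30 min against 15 min, and DESeq2 called 0 and then IARS alone, as lower.

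Around the synthetases, the scaffold genes of the complex were lower than at 0 min. AIMP2 had 456 and 488 CPM at 0 min, 82.6 and 95.4 at 5 min, 79.5 and 106 at 15 min, and 122 and 114 at 30 min. It was high at 0 min alone, and fell, with log2 changes of −2.39, −2.35 and −2.00 (SE 0.20, 0.19 and 0.19; adjusted p = 5.35e-12, 8.58e-12 and 3.88e-11). AIMP1 fell, with changes of −1.23, −1.42 and −1.57, the first not called with totals alone (−0.50, adjusted p = 0.0819). EEF1E1 fell, with changes of −0.78, −1.24 and −1.99, of which the first 2 were not called with totals alone. The first call was also lost with DESeq2 (−0.85, adjusted p = 0.0526) and with no filter (−0.74, adjusted p = 0.0604 in edgeR). It was lost too without culture 2 at 0 min (−0.43) or culture 2 at 5 min (−0.59). At 30 min against 5 min EEF1E1 had 18.6 and 25.8 CPM against 57.8 and 45.9 (−1.20 ± 0.32, adjusted p = 0.0119), a call lost without culture 1 at 5 min or culture 1 at 30 min (adjusted p = 0.0800 and 0.185).

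Among the other genes of tRNA charging and proofreading, 9 of 13 tested (69.2%) fell and 1 (7.69%) rose at 5 min, where 26% and 28.7% of all genes did, with a median of −1.01, but with totals alone only 1 fell and 2 rose. PTRH2 and PTRHD1, the peptidyl-tRNA hydrolase genes with the most counts of the list, gave 0.30 (adjusted p = 0.167) and −1.32 (adjusted p = 1.1e-06) at 5 min, and PTRH2 was called higher there with totals alone (1.04) or without culture 1 at 5 min (0.54, adjusted p = 0.0393).

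TARSL2, a further cytosolic threonyl enzyme, had the highest change of the charging genes, with 64.9 and 83.4 CPM at 5 min, against 2.42 and 17.0 at 0 min (3.05 ± 0.45, adjusted p = 5.16e-07). Its 0 min cultures held only 2 and 11 counts, so the size of this change rests on few counts.

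Of the tRNA maturation and export genes, 6 of 17 (35.3%) rose and 3 (17.6%) fell at 5 min, near the 28.7% and 26% of all genes, with a median of 0.10. The counts were 8 higher and 0 lower with totals alone, and 3 higher and 2 lower without culture 1 at 0 min. RTCB, the ligase that joins spliced tRNA, fell by 0.79 ± 0.18 at 5 min (adjusted p = 0.000291), also a call that totals alone did not make. NSUN2, an RNA methyltransferase, had the largest rise, 1.61 ± 0.26 (adjusted p = 2.37e-06). GTPBP3, which takes part in modifying mitochondrial tRNA, had the largest fall, −1.36 ± 0.55 (adjusted p = 0.0354), which was not called with totals alone, with DESeq2, with only the 2 times compared, or without culture 1 or 2 at 0 min or culture 2 at 5 min (adjusted p 0.0513 to 0.347).

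All 5 cytosolic elongation factor genes tested fell at each time against 0 min (medians −1.67, −1.82 and −1.94), and 4 of the 5 did with totals alone. Of all genes, 26%, 24.6% and 23.8% were called lower at 5, 15 and 30 min. With totals alone 1448, 1307 and 1331 of the 10439 genes were. At 5 min the changes were −2.00 ± 0.18 for EEF1B2, −1.26 ± 0.18 for EEF1D and −2.43 ± 0.26 for EEF1G (adjusted p = 4.37e-11, 2.34e-07 and 7.39e-10). Elongation factor genes have processed copies in the genome, and how such reads were assigned was not given in the sources used here. Of 11 mitochondrial translation factor genes, 5 (45.5%) fell and 2 (18.2%) rose at 5 min, where 26% and 28.7% of all genes did, with a median of −0.59, against 2 lower, 3 higher and a median of 0.15 with totals alone. TUFM, the mitochondrial elongation factor Tu, fell by 2.06 ± 0.19 at 5 min (adjusted p = 3.24e-11), while MRRF and MTRF1L, a recycling and a release factor, rose by 1.41 ± 0.21 and 1.89 ± 0.44 (adjusted p = 8.36e-07 and 0.000428).

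The amino acid response genes were called in both directions, with 10 of 23 (43.5%) lower and 5 (21.7%) higher at 5 min (median −0.85), against 26% and 28.7% of all genes, and 7 lower and 6 higher with totals alone. Without culture 2 at 5 min 3 were higher. ATF4, the factor that binds the CARE site, had 595 and 584 CPM at 0 min, 114 and 126.5 at 5 min, 215 and 257 at 15 min, and 545 and 511 at 30 min. Its cultures were lowest at 5 min, and those at 30 min were below those at 0 min with TMM (−0.16, adjusted p = 0.44) but called higher with totals alone (0.72, adjusted p = 0.000197). ATF4 fell by 2.28 ± 0.19 at 5 min (adjusted p = 5.68e-12) and rose by 2.12 ± 0.19 at 30 min against 5 min (adjusted p = 1.93e-10).

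At 30 min against 5 min, DDIT3 and DDIT4, both stress-induced genes, were the other genes of the list called, at 2.13 ± 0.26 (adjusted p = 2.51e-07) and 2.11 ± 0.57 (adjusted p = 0.0119). The 3 genes called, all higher, were 13.0% of the 23 tested. Of all genes 12.4% were called there, 5.88% higher and 6.52% lower, and with totals alone 767 of 10439 were higher and 311 lower. The DDIT4 call was lost without either culture at 5 min or without culture 2 at 30 min (adjusted p 0.0598 to 0.115), and 7 genes of the list were called with totals alone. PHGDH, a serine synthesis enzyme, fell by 0.85 ± 0.19 at 5 min (adjusted p = 0.000285; −0.12 with totals alone, adjusted p = 0.628), and SLC7A11, a cystine transporter, rose by 1.58 ± 0.42 (adjusted p = 0.00158). CHAC1 gave the lowest change at 5 min, −3.00 ± 1.02 (adjusted p = 0.0129), although its 0 and 2.83 CPM at 5 min overlapped the 2.42 and 27.8 CPM at 0 min. Without culture 2 at 0 min the CHAC1 change was −0.45 (adjusted p = 0.831).

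Set beside ATF4, the 7 cytosolic genes with a CARE core near the start shared no course. At 5 min against 0 min AARS, CARS, MARS, NARS and TARS fell, and GARS and IARS rose. Of all 20 cytosolic genes 70.0% fell and 15.0% rose there, and of all genes 26% and 28.7%, so the falls do not set the 7 apart from other cytosolic genes. At 30 min against 5 min, where ATF4 rose, 0 of the 7 were called in edgeR, where 12.4% of all genes were (5.88% higher), so that a count of 0 does not set them apart. Their changes of 0.32 for AARS, 0.17 for CARS, −0.53 for GARS, −0.37 for IARS, 0.33 for MARS, −0.49 for NARS and −0.11 for TARS (0.034 with totals alone). At an unadjusted p under 0.05, GARS, IARS and NARS were lower, and DESeq2 called IARS lower. MARS stood at 109 and 103 CPM at 30 min, against 81.4 and 86.2 at 5 min, beside the rise of DDIT3 at the overlapping locus, whose part in the MARS counts was not tested.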

How the data were processed

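Whole-number counts for 32738 entries in 32 libraries of polyadenylated RNA were deposited by the authors as 1 table. STAR and hg19 were named, per the submitters' processing notes, while versions, strand and the choice between reads and molecules are not given in the sources used here. Barcodes tied the columns to the labels. Labels and header give different tagmentation numbers for 4 libraries, which changed no sum. Counts of the 4 libraries of a culture were summed. Library totals ranged from 188686 to 381471, and in the 16 pairs of libraries from 1 cDNA the chi-square divided by its degrees of freedom was 0.327 to 0.594, under sampling noise, so they were not used as replicates, while the 4 pairs of cultures gave 2.68 to 3.48.

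Tests were two-sided quasi-likelihood F tests in edgeR 4.0.16 (R 4.3.3), with TMM, filterByExpr (10439 genes), and 1 fit over 8 cultures (residual degrees of freedom 4). P-values were adjusted over all genes (Benjamini-Hochberg) and called under 0.05. The biological coefficient of variation was 15.3%. Levels are CPM on TMM-scaled library sizes. Alternatives were RLE factors, totals alone, no filter, DESeq2 1.42.0, the replicate number as a block, only the 2 times compared, 1 library per cDNA and leaving out each culture.

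The members and lists were chosen with earlier results of these data known. Full values are given for the 3 largest called changes per direction and compartment at 5 and 30 min against 0 min and 30 against 5 min, the members with most counts, FARSA, FARSB, HARS, HARS2, GARS and KARS, and for each other list the 2 genes with most counts and the largest called change each way. The genes with a CARE core, set beside ATF4, and the classes of length were added after values were seen. Some genes that the rule names are not reported here. Promoter windows (RefSeq, GRCh38.p14) were found for 30 of 36 genes, and spans come from GENCODE v29.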

Additional observations from a re-analysis of the deposited data

How the results depend on the processing

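Of 71 calls of single synthetase genes over the 4 comparisons, 69 kept their direction and side of the threshold with RLE factors, 68 with DESeq2, 66 with no filter, 69 with only the 2 times compared, 67 with 1 library per cDNA and 61 to 68 without 1 culture. With totals alone 48 did, 18 lost their call, and 5 turned: FARSB at 15 min (0.35) and 30 min (0.11), DARS (0.22), IARS2 (0.025) and RARS2 (0.33) at 30 min. Totals alone also gave, for mitochondrial genes higher and lower, 8 and 0 at 5 min, 9 and 0 at 15 min, and 10 and 1 at 30 min. For cytosolic genes the counts were 8 lower at 15 min and 4 higher at 30 min. Over all genes tested, totals alone gave 4461, 4901 and 5622 higher and 1448, 1307 and 1331 lower at 5, 15 and 30 min. At 30 min against 5 min, the 3 cytosolic genes lower became 1 with totals alone, no filter or 1 library per cDNA, and the 1 mitochondrial gene lower became 0 with totals alone or no filter and 2 with RLE factors, only the 2 times or 1 library per cDNA, which also called 1 higher. The median log2 fold change of mitochondrial synthetase genes at 30 min against 0 min was −0.094 with RLE factors, −0.10 with DESeq2, −0.071 with only the 2 times and −0.075 with 1 library per cDNA, and that of cytosolic genes at 30 min against 5 min was 0.036 with totals alone. Leaving out 1 culture in turn gave 1 to 2 mitochondrial genes lower at 5 min, 1 to 2 at 15 min and 1 to 3 at 30 min, and at 30 min against 5 min 0 to 3 cytosolic and 0 to 2 mitochondrial genes lower. Apart from the scaling, the causes were not tested. The cultures shared a number only, with correlations of their deviations between −0.0313 and 0.0769, and with that number as a replicate block all 71 calls stood and 25 genes differed over the 4 times. The test of all 4 times has no value with only the 2 times compared. Depth limits VARS, CARS2, AARS2, VARS2 and SARS2 most, at 14 to 196 counts each.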
